A study of Mus musculus with 13 samples.

Results

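The 9 genes described here make triglyceride or supply and carry its glycerol backbone: Gpam, Agpat2, Lpin1, Dgat1, Dgat2, Gpd1, Gpd2, Pck1 and Aqp7. They were chosen by name for these roles, with earlier results of these data known, and they are 9 of the 13360 genes tested among 42416 identifiers in the files. RNA was sequenced from interscapular brown adipose tissue (iBAT), 1 library per mouse, of 8 iFAXLKO and 5 WT mice. The iFAXLKO mice are Axl-floxed and Cre positive, and Adipoq-CreERT2, a transgene made from a bacterial artificial chromosome, is the Cre line named in the study's methods, with activity in adipocytes after tamoxifen. The WT mice carry the same floxed Axl without Cre. Both groups were fed a high-fat diet (HFD), given tamoxifen every 3 weeks and housed at room temperature. The study describes the sequenced mice as female littermates, and the labels do not give their age. The comparison asks whether the adipocyte-directed deletion of Axl, a receptor tyrosine kinase, changes these transcripts.

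Triglyceride is built from glycerol 3-phosphate and activated fatty acids. Glycerol 3-phosphate acyltransferase (Gpam in mitochondria) adds the first acyl chain, Agpat2 adds the next to give phosphatidate, Lpin1 removes the phosphate to give diacylglycerol, and Dgat1 or Dgat2 adds the last chain. Glycerol 3-phosphate comes through cytosolic Gpd1 from glycolysis or from glyceroneogenesis, which needs Pck1, or from glycerol through glycerol kinase. Gpd2, the mitochondrial enzyme, oxidises it back and passes the electrons to the respiratory chain, and Aqp7 is a channel that lets glycerol cross the adipocyte membrane. Brown fat is known for an active glycerol 3-phosphate shuttle and for burning and rebuilding triglyceride in turn.

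None of the 9 genes was called different between the groups by edgeR's quasi-likelihood test. At an adjusted p under 0.05, 0 of 9 were called, beside 17 of 13360 genes over the whole table (0.127%). At an unadjusted p under 0.05 the count was again 0 of 9, where the whole table gave 7.38%. In DESeq2, limma-voom and the other alternative fits the number called was also 0. The fold change was below 0 for 8 of the 9, while 53.6% of all genes tested had a negative one, and the median log2 fold change was -0.12 for the 9 and -0.01 over all genes. The CPM ranges of the groups overlapped for each of the 9, and 0.434% of all genes had ranges that did not overlap. The directions were not stable across the alternative fits. With the fibroblast score as a covariate, the log2 fold changes of Agpat2, Lpin1, Gpd1, Gpd2 and Aqp7 turned positive, at 0.02 to 0.18. That of Dgat2 turned negative, at -0.05. The score of a library ran from 4.26 to 4.94 in WT and from 4.94 to 5.53 in iFAXLKO. It thus nearly separates the groups, so this fit can hardly tell group from score, and no direction is read from it.

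Axl, the targeted gene, was at 33.2 ± 6.17 CPM (SD, n = 8) in the libraries labelled iFAXLKO and 27.8 ± 3.83 CPM (SD, n = 5) in WT, with CPM standing for counts per M after TMM scaling of each library. The level was thus not lower in the libraries labelled iFAXLKO (log2 fold change 0.25, 95% interval -0.02 to 0.52, edgeR adjusted p 0.699). The ranges of the groups overlapped. The whole-tissue level of Axl thus neither bears out a loss of Axl in adipocytes nor contradicts it. With the fibroblast score as a covariate the log2 fold change was -0.28. That score nearly separates the groups, so no conclusion is drawn from this value. Each fold below compares the libraries labelled iFAXLKO with those labelled WT. Total counts ran from 22.44 to 32.6 M per library. Skeletal muscle markers varied widely in both groups, from a summed 57.0 to 5614 CPM in iFAXLKO and from 68.2 to 3914 CPM in WT. Summed fibroblast markers ran from 482 to 1021 CPM in iFAXLKO against 342 to 598 CPM in WT. All 9 of them were higher at an unadjusted edgeR p under 0.05 and none at an adjusted one. Macrophage markers were higher in the same way for 6 of 6. Ucp1, which marks brown adipocytes, was at 5608 ± 1123 CPM (SD, n = 8) against 6378 ± 916 CPM (SD, n = 5), with an edgeR adjusted p of 0.835. Of the 11 brown adipocyte markers 4 were higher and 7 lower in iFAXLKO, with 1 at an unadjusted edgeR p under 0.05, and their median log2 fold change was -0.07. The 5 white adipocyte markers were all higher, 2 of them at an unadjusted edgeR p under 0.05 and none at an adjusted one. The 6 general adipocyte markers were all lower, with a median log2 fold change of -0.06 and 0 at an unadjusted edgeR p under 0.05. Their summed level had a median of 15099 CPM in iFAXLKO and 14712 CPM in WT. Of the endothelial markers 5 were higher and 1 lower, with 0 at an unadjusted edgeR p under 0.05. The part of these cells in the results was not tested beyond the covariate fits. In whole tissue, a change in the number of cells and a change in RNA per cell cannot be told apart.

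The promoter windows shown here are those of Pck1, Aqp7, Lpin1 and Gpd2, because these genes form the most closely related pairs across mice described further on. They are RefSeq promoter windows (GRCm38.p6), each cut before the first base of its own gene that GENCODE M21 counts as transcribed. Capitals mark matches to short motifs within the stretch printed.
Pck1, chr2:173152823-173153047, strand +: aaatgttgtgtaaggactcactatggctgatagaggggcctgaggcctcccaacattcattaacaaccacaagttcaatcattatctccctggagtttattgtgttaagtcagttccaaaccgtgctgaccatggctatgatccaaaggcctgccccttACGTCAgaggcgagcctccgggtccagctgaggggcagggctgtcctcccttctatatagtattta
Aqp7, chr4:41048140-41048386, strand -: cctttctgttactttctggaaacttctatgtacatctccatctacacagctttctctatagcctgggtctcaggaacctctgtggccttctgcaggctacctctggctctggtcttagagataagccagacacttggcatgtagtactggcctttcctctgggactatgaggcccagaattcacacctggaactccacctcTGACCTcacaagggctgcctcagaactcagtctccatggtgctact
Lpin1, chr12:16610967-16611216, strand -: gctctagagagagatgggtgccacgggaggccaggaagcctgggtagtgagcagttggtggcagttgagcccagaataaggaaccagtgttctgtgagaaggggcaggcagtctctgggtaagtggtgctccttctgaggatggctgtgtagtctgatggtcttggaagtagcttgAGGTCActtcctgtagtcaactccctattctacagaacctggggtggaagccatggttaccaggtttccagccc
Gpd2, chr2:57237428-57237634, strand +: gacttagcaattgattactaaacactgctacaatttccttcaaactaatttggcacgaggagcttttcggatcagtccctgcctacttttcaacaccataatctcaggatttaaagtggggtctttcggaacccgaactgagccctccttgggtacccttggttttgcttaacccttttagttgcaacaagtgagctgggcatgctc

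The motifs were searched on both strands in the 250 bases before each RefSeq start. Windows were present for 6 of the 9 genes. ACGTCA, the core of a cAMP response element, lay 91 to 86 bases before the start of Pck1, and 6.47% of the 32851 windows hold it. AGGTCA, the half-site of many nuclear receptors, lay 74 to 69 bases before Lpin1 and, on the other strand, 49 to 44 bases before Aqp7, and 14.0% of all windows hold it. GGGCGG, a GC box held by 32.7% of windows, occurred in overlapping copies before Agpat2. It also lay 16 to 11 bases before the RefSeq start of Pck1, in bases that GENCODE counts as transcribed and that are not printed above. CCAAT, held by 33.8%, occurred before Gpam. None of these letters occurred in the Gpd2 window. The TATA box core TATAAA and the E-box CACGTG, held by 12.4% and 6.02% of windows, matched none of the 6. A match is only a run of letters and does not show binding.

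Gpam (ENSMUSG00000024978, chromosome 19, 55067268 to 55127238, minus strand, GRCm38) starts the pathway. Its level was 695, 557, 730, 802 and 833 CPM in WT replicates 1 to 5, and 507, 654 and 736 CPM as the lowest, median and highest of the 8 iFAXLKO libraries. The groups overlapped, although 7 of 8 iFAXLKO libraries lay below the WT mean. The log2 fold change was -0.16 (SE 0.11, 95% interval -0.40 to 0.08), with an edgeR adjusted p of 0.806.

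Agpat2 (ENSMUSG00000026922, chromosome 2, 26593057 to 26604417, minus strand), whose loss is known to cause lipodystrophy, was at 1173, 1734, 969, 1005 and 1262 CPM in WT. The iFAXLKO libraries ran from 884 through a median of 1016 to 1540 CPM. WT replicate 2 held the highest level of all, and of the iFAXLKO libraries only replicate 4 lay below the WT range. Its log2 fold change was -0.13 (SE 0.16, 95% interval -0.47 to 0.22), edgeR adjusted p 0.918, and leaving WT replicate 2 out gave 0.03. The exons share 64 bases with Egfl7 on the opposite strand, and the strand setting of the counting is not stated.

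Lpin1 (ENSMUSG00000020593, chromosome 12, 16535669 to 16610966, minus strand) had the largest SD of log2 CPM within groups among the 9, though Dgat2 spanned a wider fold from its lowest to its highest library (2.29). WT replicates 1 to 5 were at 658, 415, 295, 385 and 625 CPM, and iFAXLKO ran from 296 through 419 to 613 CPM. Both groups thus spanned nearly the same range, 2.23-fold from the lowest to the highest library. The SD was 0.42, higher than that of 93.8% of the 1356 genes with a mean of at least 100 CPM. Between groups, the log2 fold change was -0.12 (SE 0.21, 95% interval -0.57 to 0.34), edgeR adjusted p 0.956, and leaving out WT replicate 1 gave 0.03.

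Dgat1 (ENSMUSG00000022555, chromosome 15, 76502015 to 76511953, minus strand) was the steadiest of the 9. Its level was 197, 268, 246, 228 and 186 CPM in WT and ran from 199 through 222 to 257 CPM in iFAXLKO, inside the WT range. The within-group SD of log2 CPM was 0.16, lower than for most genes of that abundance, since 38.7% had a lower SD. Its log2 fold change was -0.02 (SE 0.10, 95% interval -0.22 to 0.19), with an edgeR adjusted p of 0.987.

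Dgat2 (ENSMUSG00000030747, chromosome 7, 99153658 to 99182719, minus strand), the other enzyme of the last step, was the only one of the 9 with a positive fold change. WT replicates 1 to 5 were at 1949, 1899, 1686, 2262 and 1619 CPM. The iFAXLKO libraries ran from 1383 through 2051 to 3171 CPM, so that they lay both above and below the WT libraries, with replicates 7 and 8 the highest. The log2 fold change was 0.19 (SE 0.18, 95% interval -0.19 to 0.58), edgeR adjusted p 0.879. The labels give each library a number, and the libraries were divided for this comparison into a lower and an upper range of numbers, a division that the labels do not make. The difference in mean log2 CPM was -0.01 in the lower range (6 libraries) and 0.30 in the upper (7 libraries). It also turned from negative to positive for Lpin1 (-0.53 and 0.27), Agpat2 (-0.53 and 0.2), Gpd1 (-0.4 and 0.13) and Pck1 (-0.24 and 0.18). For Aqp7 it was 0.11 and -0.27, for Dgat1 0.02 and -0.05, for Gpam -0.12 and -0.13, and for Gpd2 -0.41 and -0.04.

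Gpd1 (ENSMUSG00000023019, chromosome 15, 99717515 to 99725005, plus strand) was the most abundant of the 9. It was at 9523, 11378, 6717, 6896 and 11177 CPM in WT and ran from 6460 through 8695 to 10201 CPM in iFAXLKO. WT replicates 3 and 4 sat with the lowest iFAXLKO libraries, and WT replicates 2 and 5 above every iFAXLKO library. For the groups the log2 fold change was -0.12 (SE 0.15, 95% interval -0.44 to 0.20), edgeR adjusted p 0.918. Antisense Gm16537 shares 384 exon bases with it but held at most 139 counts in a library.

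Gpd2 (ENSMUSG00000026827, chromosome 2, 57237635 to 57370719, plus strand) had the fold change farthest from 0. WT replicates 1 to 5 were at 1135, 801, 729, 716 and 1252 CPM, and iFAXLKO ran from 618 through 805 to 917 CPM. All 8 iFAXLKO libraries were below the WT mean, which WT replicates 1 and 5 raised, and the other WT libraries lay within the iFAXLKO range. The log2 fold change was -0.24 (SE 0.15, 95% interval -0.55 to 0.07), edgeR adjusted p 0.751, and an exact permutation test over 1287 splits gave a 2-sided p of 0.215. Without WT replicate 5 or another single library it lay between -0.32 and -0.11. A930012O16Rik on the opposite strand shares 487 exon bases with Gpd2 and held 38 to 75 counts in a library. Its span also holds the Gpd2 window printed above.

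Pck1 (ENSMUSG00000027513, chromosome 2, 173153048 to 173159273, plus strand), the rate-limiting enzyme of glyceroneogenesis, was at 4536, 3643, 3653, 4601 and 4135 CPM in WT. In iFAXLKO it ran from 3004 through 3955 to 5671 CPM, the highest in replicate 7. The means were 4078 ± 855 CPM (SD, n = 8) and 4113 ± 461 CPM (SD, n = 5). Its log2 fold change was -0.01 (SE 0.14, 95% interval -0.30 to 0.28), edgeR adjusted p 0.992.

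Aqp7 (ENSMUSG00000028427, chromosome 4, 41033074 to 41048139, minus strand) was at 240, 241, 263, 218 and 242 CPM in WT. In iFAXLKO it ran from 166 through 233 to 278 CPM, with the lowest in replicate 7, the library that was highest in Pck1 and Dgat2. The log2 fold change was -0.07 (SE 0.11, 95% interval -0.31 to 0.17), edgeR adjusted p 0.947. The 95% intervals of the fold change of the 9 genes lay between 0.672 (Lpin1) and 1.49 (Dgat2), so larger changes than these were outside the intervals of this comparison.

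**Figure D1:**
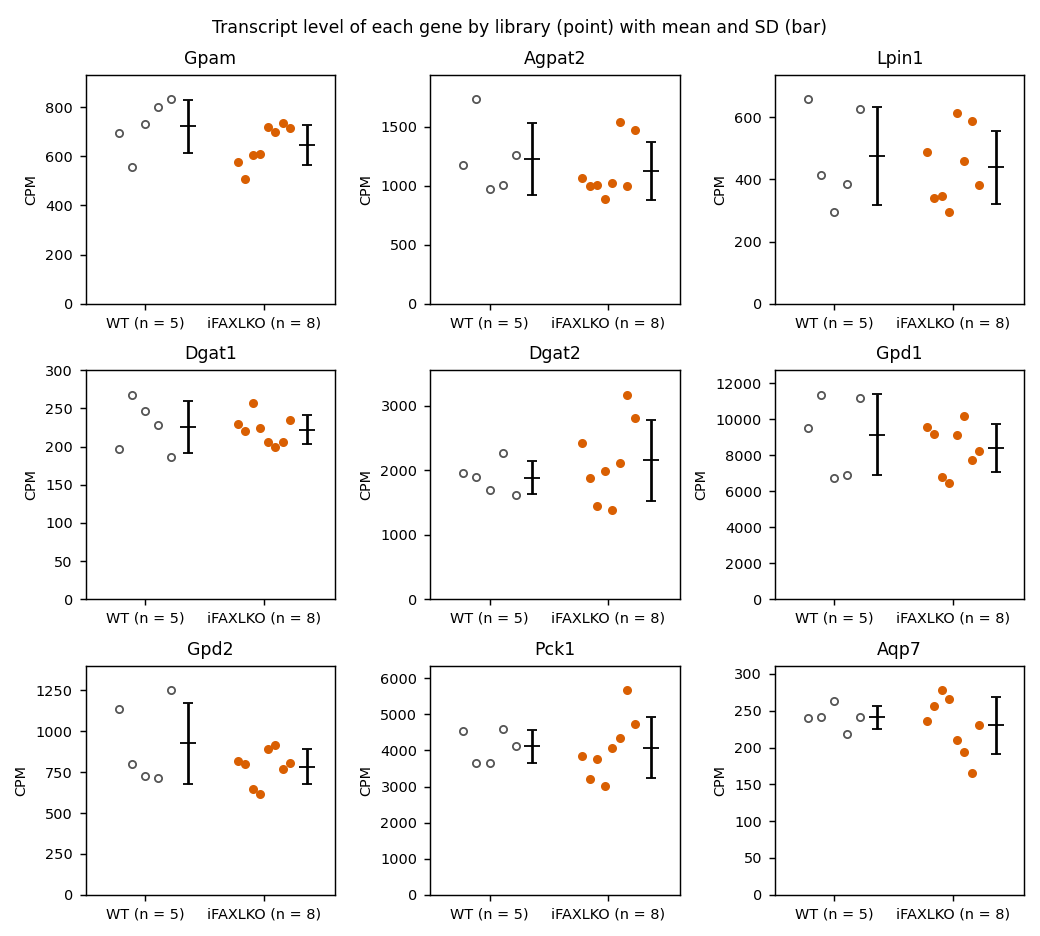
Level of each gene in CPM (y axis, from 0) in the 5 WT libraries (open grey points) and the 8 iFAXLKO libraries (orange points), in replicate order, with black bars for mean and SD. The groups overlap in each panel, and the Pck1 and Dgat2 panels show iFAXLKO replicate 7 at 5671 and 3171 CPM.

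Other genes of the same pathway were taken from 5 lists, 39 genes in all, of which 34 were tested and 0 were called. Of the 34, 2 had an unadjusted edgeR p under 0.05, a share below the 7.38% of all genes, and neither passed the adjusted limit. Plin2, a lipid droplet coat protein, had a log2 fold change of -0.33 (SE 0.12, edgeR adjusted p = 0.535). Lpin2, a lipin like Lpin1, had -0.20 (SE 0.09, edgeR adjusted p = 0.628). In all, 25 had a negative and 9 a positive fold change, where 53.6% of all genes had a negative one, with a median of -0.05.

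Among the other acyltransferases, lipins and monoacylglycerol acyltransferases, 9 of 11 were tested, and next to Lpin2 the smallest p were those of Agpat3 at -0.11 and Lpin3 at 0.33 (log2 fold changes). Of the glycerol genes, Gk, glycerol kinase, was at -0.26, Gpd1l at 0.12 and Tpi1, triosephosphate isomerase, at -0.09. The acyl-CoA synthetases that activate fatty acids gave -0.16 for Acsl1, -0.25 for Acsl5 and -0.06 for Acsl3. In the branch and droplet list, Cds2, which diverts phosphatidate to other lipids, was at 0.09 and Plin1 at -0.08. The transcription factors and coactivator Srebf1, Mlxipl and Ppargc1a were at 0.27, -0.07 and -0.07. Gpat2, Mogat2, Aqp3, Aqp9 and Acsl6 fell under the filter.

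**Figure D2:**
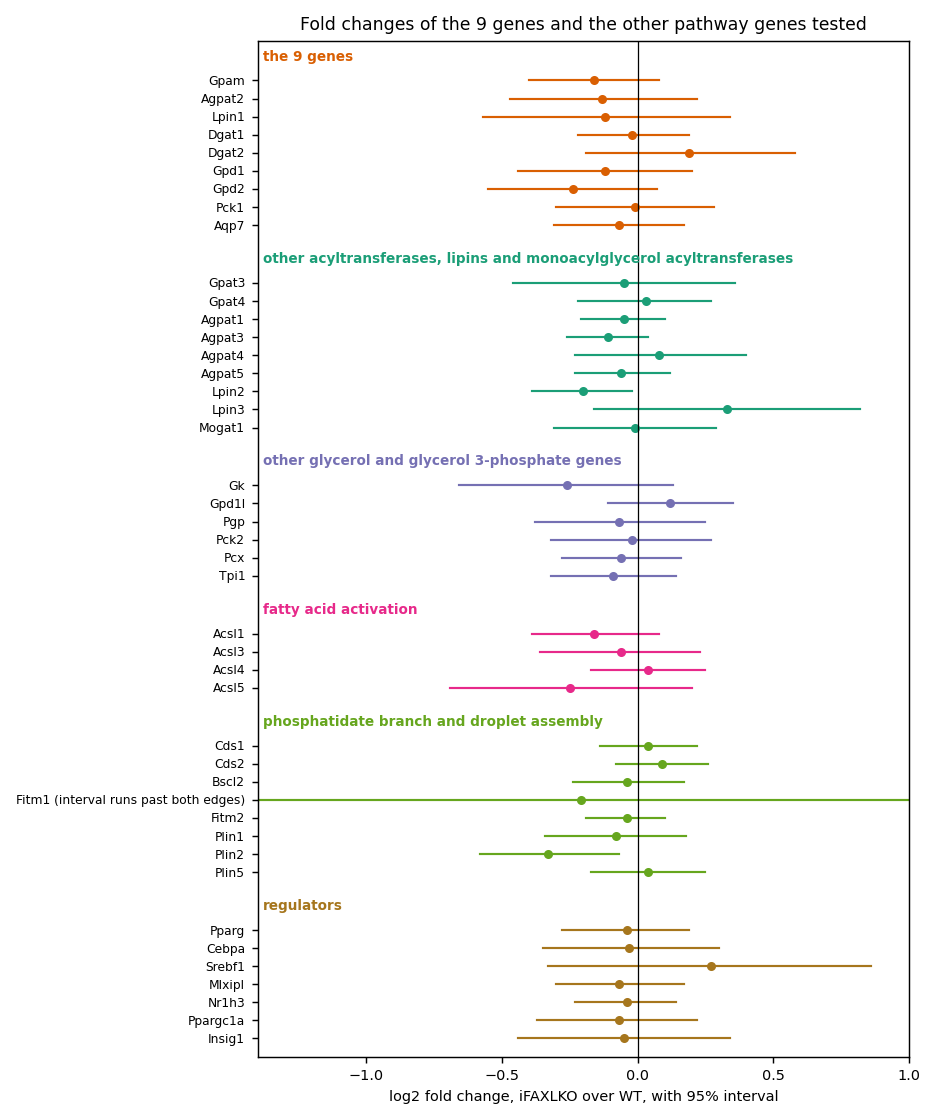
Log2 fold change of iFAXLKO over WT (x axis) with its 95% interval for the 9 genes (orange, top) and the 34 other pathway genes tested, by list. The intervals of the 9 genes all cross 0, and those of Lpin2 and Plin2, at -0.20 and -0.33, do not.

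Levels of different genes were compared per kb of exon (mean of 13 libraries). Gpd1 led at 2936 CPM per kb, rank 15 of the genes tested, followed by Pck1 at 1193, Dgat2 at 664 and Agpat2 at 547. Gpd2 stood at 128, Gpam at 101, Aqp7 at 82.7, Dgat1 at 73.1 and Lpin1 at 46.8 CPM per kb. Gpd1 exceeded Pck1, Pck1 exceeded Dgat2, and Agpat2 exceeded Gpd2 in 13 of 13 libraries. Dgat2 exceeded Agpat2 in 8 and Gpam exceeded Aqp7 in 9, so these neighbours did not separate beyond the spread of the libraries. With the length of the longest protein-coding transcript in place of all exons, Dgat1 moved above Gpam and Aqp7, at 118 CPM per kb.

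Most steps rested on 1 gene. At the last step Dgat2 made 90.0 ± 2.92% (SD, n = 8) of the Dgat1 and Dgat2 level per kb in iFAXLKO and 89.2 ± 1.73% (SD, n = 5) in WT. Lpin1 made 92.4 ± 1.44% (SD, n = 8) and 93.1 ± 2.29% (SD, n = 5) of the lipins. Pck1, the cytosolic form, made 99.8% of the carboxykinases in both groups, and mitochondrial Pck2 the rest. Aqp7 was the only aquaglyceroporin of those measured with a level clearly above the floor, since Aqp3 and Aqp9 reached at most 0.153 and 0.183 CPM, where 3 counts are 0.092 to 0.134 CPM.

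The first steps were shared more evenly. Gpam made 62.2 ± 4.71% (SD, n = 8) of the glycerol 3-phosphate acyltransferase level in iFAXLKO and 65.0 ± 4.82% (SD, n = 5) in WT, and Gpat4 of the endoplasmic reticulum made 36.1% and 33.3%. Agpat2 made 77.7 ± 3.02% (SD, n = 8) and 78.1 ± 3.04% (SD, n = 5) of its family, followed by Agpat3 at 14.5% in both groups. These shares concern transcript per length and not enzyme activity.

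**Figure D3:**
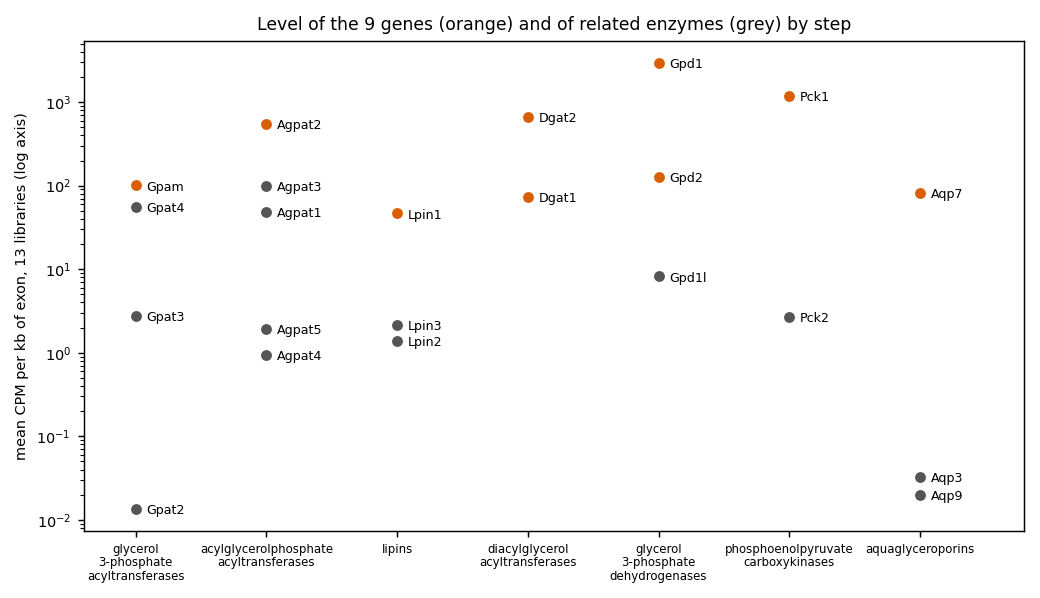
Mean level in CPM per kb of exon over 13 libraries (y axis, log scale) of the 9 genes (orange) and of related enzymes (grey), by pathway step. Gpd1 stands highest at 2936, and at the steps of Lpin1, Pck1 and Aqp7 the next gene lies far below.

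Ratios taken within a library cancel its scaling, and 5 were compared by an exact permutation test over 1287 splits, 2-sided. None passed the limit, the smallest Benjamini-Hochberg p over the 5 being 0.565. Dgat2/Dgat1 was 9.70 ± 3.05 (SD, n = 8) in iFAXLKO and 8.41 ± 1.47 (SD, n = 5) in WT. Pck1/Gpd1 was 0.426 ± 0.106 (SD, n = 8) and 0.411 ± 0.120 (SD, n = 5). The ratio Aqp7/Gk, glycerol channel over glycerol kinase, was 3.21 ± 0.873 (SD, n = 8) and 2.7 ± 0.386 (SD, n = 5), and Gpam over the sum of Gpat3 and Gpat4 was 1.68 ± 0.339 (SD, n = 8) and 1.91 ± 0.464 (SD, n = 5).

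The ratio of Gpd1 to Gpd2, the cytosolic and mitochondrial arms of the shuttle, was narrow in iFAXLKO, at 23.7 ± 1.40 (SD, n = 8), from 22.2 to 25.9. In WT it was 18.6, 31.4, 20.4, 21.3 and 19.7 in replicates 1 to 5. WT replicate 2 thus lay above every iFAXLKO library and the other 4 below every one of them. The difference in mean log2 ratio was 0.11 (exact permutation p = 0.339), with 0.01 in the lower and 0.17 in the upper range of library numbers. Without WT replicate 2 it was 0.24 with an unadjusted exact permutation p of 0.00202. That library was singled out after its ratio was seen, and the other 4 already lay below every iFAXLKO library. The p is thus the smallest that this test could give, and no conclusion is drawn from it. WT replicate 2 also stood apart from the other libraries on the second principal component of all genes, at -43.7 where the other 12 ran from -10.1 to 24.5. The size of the difference depends on that library, and with all 13 libraries none was called.

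Across mice, the 9 genes were compared in 36 pairs by the correlation of log2 CPM after subtracting group means, over 13 libraries. By a permutation test that reordered libraries within each group, 0 of 36 pairs passed an adjusted p under 0.05, and 11 had an unadjusted p under 0.05. The share among pairs of other genes is not given here, and the first principal component of all genes held 43% of the variance. The count of 11 therefore does not set these genes apart from others. Pearson's r ran from -0.82 to 0.81, with a median absolute value of 0.36. A permutation over all 13 libraries, tried after this count was seen, passed 6 of 36 pairs, so that the call depends on the permutation scheme.

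Pck1 and Aqp7 had the most negative relation, r = -0.82 (permutation p = 0.00307, adjusted p = 0.0587) and Spearman's rho = -0.74 (permutation p = 0.00767, adjusted p = 0.092). It was weaker with the 2 extreme libraries in Pck1 left out (r = -0.61), without iFAXLKO replicate 7 (r = -0.67), and within the lower range of library numbers (r = -0.24, 6 libraries), while the upper range gave r = -0.73 (7 libraries). With free orders the adjusted p of r was 0.0221.

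Lpin1 and Gpd2 had the most positive relation, r = 0.81 (permutation p = 0.00326, adjusted p = 0.0587) and rho = 0.76 (permutation p = 0.00608, adjusted p = 0.092). It was r = 0.66 with the 2 extreme libraries in Lpin1 left out, 0.86 among the lower library numbers and 0.72 among the upper. Leaving out single libraries moved r between 0.77 and 0.87. With free orders the adjusted p was 0.0221 here too.

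Other pairs had an adjusted p of 0.0832 each by permutation within groups. Gpd1 and Gpd2, the arms of the shuttle, gave r = 0.77, with 0.43 in the lower and 0.98 in the upper numbers. Dgat1 ran against Gpd2 (r = -0.78) and Lpin1 (r = -0.71), Agpat2 with Gpd1 (r = 0.70), Gpam with Pck1 (r = 0.68) and Lpin1 against Aqp7 (r = -0.61). Dgat1 and Dgat2, which share a step, gave r = -0.05.

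**Figure D4:**
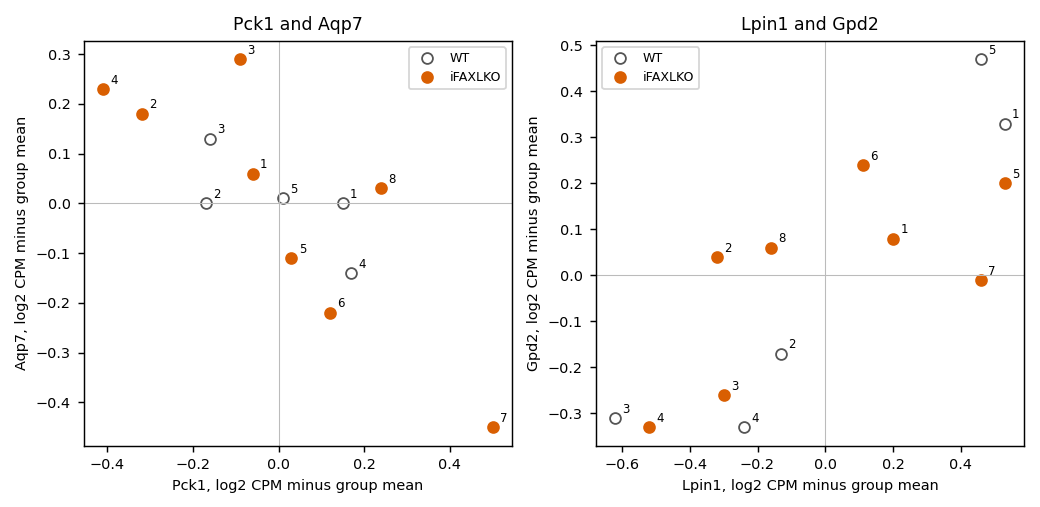
Log2 CPM minus the group mean in 13 libraries (open grey WT, orange iFAXLKO, numbers are replicates) for Pck1 against Aqp7 (left, r = -0.82) and Lpin1 against Gpd2 (right, r = 0.81). In the left plot iFAXLKO replicate 7 lies at the lower right, away from the rest.

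**Figure D5:**
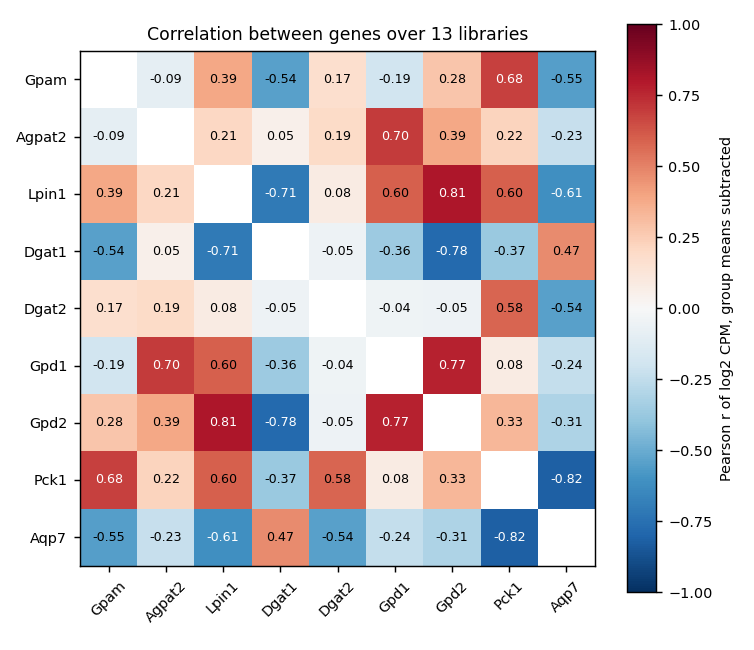
Pearson r of log2 CPM with group means subtracted for the 36 pairs of the 9 genes over 13 libraries (red positive, blue negative). Values run from -0.82 (Pck1 and Aqp7) to 0.81 (Lpin1 and Gpd2), and Dgat1 and Aqp7 are each negative with most of the others.

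The genes were also set beside scores of cell markers, the mean log2 CPM of a marker list in each library. Agpat2 ran with the adipocyte marker score (r = 0.83, permutation p = 0.00266, adjusted p = 0.0718 over 54 relations) and against the endothelial score (r = -0.77, permutation p = 0.00258, adjusted p = 0.0718). Gpd1 gave r = 0.71 with the adipocyte and -0.68 with the endothelial score, and Aqp7 gave 0.67 with the endothelial score. None of the 54 relations passed the adjusted limit with permutation within groups, 7 had an unadjusted p under 0.05, and 2 passed with free orders. The share among other genes is not given here either. After removing the endothelial score the r of Agpat2 and Gpd1 was 0.39 instead of 0.70, that of Pck1 and Aqp7 -0.70 and that of Lpin1 and Gpd2 0.75.

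Among the 10325 genes of at least 5 CPM, those most like the mean of the 9 over 13 libraries were Scoc (r = 0.94), Pafah1b1 (0.926), Trappc13 (0.917), Eif2ak1 (0.916) and Mmgt1 (0.914), as a description with no test. The gene most like Gpd1 was Dlat (r = 0.959), a subunit of the pyruvate dehydrogenase complex. For the others it was Cdk5rap2 for Gpam (0.949), Gpatch11 for Agpat2 (0.96), Mllt3 for Lpin1 (0.94), Tex264 for Dgat1 (0.946), Mettl8 for Dgat2 (0.89), Dync1i2 for Gpd2 (0.959), Erlec1 for Pck1 (0.906) and Gm46430 for Aqp7 (0.912).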

How the data were processed

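Total RNA of iBAT was sequenced, 1 library per mouse, and the deposited files hold raw counts per Ensembl gene made by the authors. The submitters' processing notes name bcl2fastq 2.20, fastp 0.20.0, STAR 2.7.4a, DESeq2 and GRCm38.p6, whereas the methods of the study name Trim Galore, hisat2 and GRCm38, with rRNA depletion and a HiSeq against poly-A RNA and a NovaSeq in the labels. The counting tool and strand setting are not given in the sources used here. Positions and lengths came from GENCODE M21.

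The filter asked for over 1 CPM in 5 or more libraries. Counts were scaled by TMM and tested by edgeR 4.0.16 (quasi-likelihood, 2-sided, limma 3.58.1, R 4.3.3), with Benjamini-Hochberg adjustment over all 13360 genes and a limit of 0.05. Log2 CPM used a prior count of 2. Pair correlations used 100000 orders drawn within groups. The fixed plan did not say how orders are drawn: orders within groups were computed first, and orders over all libraries were added after their result was seen. The code was tested on simulated data. DESeq2 1.42.0, limma-voom, RLE factors, no filter, covariates and leaving out each library were alternatives. A count of 0 allows 3 counts, for counting error only. No 2 libraries of the same group agreed within sampling noise. P-values measure the spread between these mice.

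The genes and lists were chosen with earlier results of these data known. Named besides the 9 are up to 3 genes of smallest p per list, Axl, Ucp1 and the genes most alike in pattern. Marker lists are given as counts and ranges.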

Additional observations from a re-analysis of the deposited data

Results flagged for a closer look

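The ratio of Gpd1 to Gpd2 in WT replicate 2 was 31.4, where the next highest WT library had 21.3. The gap was 0.786 of the range of the 5 WT libraries, above Dixon's limit of 0.71. It was the only such value among 28 groups of libraries checked. Chance gives such a value in about 1 of 20 groups, so 1 among 28 is no more than chance gives.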

How the results depend on the processing

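No alternative called any of the 9 genes: 198 values from 22 other fits were computed, of which 13 fits left out 1 library. The direction turned in 27 of the 198, always with an adjusted p far above the limit. With a fibroblast score as a covariate the log2 fold changes were 0.18 for Agpat2, 0.02 for Lpin1, -0.05 for Dgat2, 0.11 for Gpd1, 0.07 for Gpd2, 0.02 for Aqp7 and, for Axl, -0.28. That score nearly separates the groups, so no direction is read from these values. Limma-voom gave 0.01 for Agpat2, 0.03 for Dgat1 and 0.04 for Gpd1. With 1 library left out, Agpat2 ranged from -0.21 to 0.03, Lpin1 from -0.23 to 0.03, Dgat1 from -0.08 to 0.05 and Pck1 from -0.09 to 0.05. Without a change of sign, Gpam ranged from -0.24 to -0.11, Dgat2 from 0.09 to 0.27, Gpd1 from -0.2 to -0.03, Gpd2 from -0.32 to -0.11 and Aqp7 from -0.11 to -0.01. Over all genes DESeq2 called 67, the fibroblast covariate 7 and the other fits to all 13 libraries 16 to 24, against 17.

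The labels do not say that replicate numbers pair the mice. Same-numbered libraries correlated at 0.392, 0.422, 0.188, 0.181 and -0.614 for numbers 1 to 5, and iFAXLKO 1 and 2 correlated best with their own number, so the numbers were not taken as pairs. With the replicate block over numbers 1 to 5 the values were 0.02 for Dgat1, -0.07 for Dgat2 and 0.05 for Aqp7, and without the block 0.01, -0.05 and 0.05. The block called 7 genes in all and the same libraries without it 12.

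The difference in log2 Dgat2/Dgat1 was -0.03 in the lower range of library numbers. In the upper range, which does not hold WT replicate 2, that of Gpd1/Gpd2 was 0.17. Its exact permutation p of 0.0286, unadjusted, is the smallest that so few libraries can give. With 1 library left out the difference ran from 0.05 to 0.24. In the same way that of Pck1/Gpd1 ran from -0.06 to 0.2, Dgat2/Dgat1 from 0.06 to 0.26, Aqp7/Gk from 0.14 to 0.3 and Gpam/(Gpat3+Gpat4) from -0.25 to -0.05. Of the 36 pairs, 6 passed with free orders, 3 after removing a skeletal muscle score, 0 after removing an endothelial score, and 0 to 2 with 1 library left out, against 0. The free orders, the endothelial score and leaving out libraries here were chosen after seeing the data. The cause of these changes was not tested.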
